A study of Mus musculus with 48 samples.

Results

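Retnlg, Ifitm6, Wfdc21, Wfdc17, BC100530, Stfa1, Stfa2 and Stfa2l1 are genes that single-cell surveys often list among the transcripts of mature mouse neutrophils. The 8 genes were taken by name, with earlier results of these data known. All 8 were present among the 34586 genes of the unique molecular identifier (UMI) table. In that table a UMI stands for 1 captured mRNA molecule. The cells came from joint, lung, muscle, skin and spleen of male DBA1/J mice of 8 to 12 weeks, of which 4 were healthy controls and 6 had collagen-induced arthritis (CIA). CIA was induced by intradermal bovine collagen II in Complete Freund's Adjuvant, with a booster in incomplete adjuvant on day 20, whereas the controls received saline, so that collagen and adjuvant cannot be told apart. Of the CIA mice, S1, S2 and S3 had an arthritis score of 8 and S5, S6 and S8 a score of 2 to 5. All 3 severe mice belonged to the experiment labelled 2CIA, with the healthy mouse H3, and the milder mice to the experiment labelled CIA, with H4, H6 and H7, so that severity and experiment cannot be told apart among CIA mice. Frozen and thawed organs were captured by Seq-Well, a nanowell method with barcoded beads, as 48 samples (joint of 3 healthy and 5 CIA mice, the other organs of 4 and 6). The deposited annotation gave 12096 of 13240 cells 1 of 13 cell type labels, and the 8 genes held 32124 UMIs, 0.302% of all UMIs of those cells.

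Stefins are small cytosolic inhibitors of cysteine proteases such as the cathepsins, and the mouse carries an expanded stefin cluster that includes Stfa1, Stfa2, Stfa2l1 and BC100530. Retnlg encodes resistin-like gamma, a secreted relative of resistin found in bone marrow and neutrophils. Wfdc17 and Wfdc21 encode small secreted proteins with a whey acidic protein (WAP) domain, a fold shared with protease inhibitors such as Slpi, and Ifitm6 belongs to the interferon-induced transmembrane family. Neutrophils fill their granules in waves as they mature, with Mpo and Prtn3 early and Ltf, Camp and Ngp later, and the alarmins S100a8 and S100a9 are among their most abundant transcripts.

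In GRCm38 with the GENCODE M21 annotation, the stefin members lay within 252 kb of chromosome 16, in the order Stfa2l1 at chr16:36156811-36161953 (plus strand), Stfa1 at chr16:36276951-36285373 (plus strand), BC100530 at chr16:36359382-36367748 (minus strand) and Stfa2 at chr16:36403992-36408457 (minus strand). Retnlg lay 12.5 Mb away on the same chromosome, at chr16:48872621-48874496 (plus strand). Wfdc17 at chr11:83703991-83706268 (plus strand) and Wfdc21 at chr11:83746940-83752642 (plus strand) were 40.7 kb apart, and Ifitm6 lay at chr7:141015699-141017924 (minus strand). The stefin members formed pairs by sequence, which matters for the counts because the reads came from the 3′ end of each mRNA. The coding sequences of Stfa1 and BC100530 were each 294 bases long and differed at 6 positions (98.0% identity, longest shared run 128 bases), and the last 300 bases of their transcripts were 98.7% identical. Those of Stfa2 and Stfa2l1 were 312 bases long and differed at 11 positions (96.5% identity), but the last 300 transcript bases were 72.0% identical. The split of UMIs between Stfa1 and BC100530 is therefore uncertain. The spliced coding sequences (GRCm38, 5′ to 3′ on the gene's strand) are shown to make this visible, with the bases that differ from the pair's other member in capitals, and those of Stfa2 and Stfa2l1 stop after 300 bases.
Stfa1: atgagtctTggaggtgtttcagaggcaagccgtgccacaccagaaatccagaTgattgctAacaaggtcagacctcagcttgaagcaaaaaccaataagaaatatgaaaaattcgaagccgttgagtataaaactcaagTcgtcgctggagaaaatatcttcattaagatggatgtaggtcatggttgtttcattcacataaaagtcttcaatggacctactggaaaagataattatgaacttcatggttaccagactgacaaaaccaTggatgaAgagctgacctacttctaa
BC100530: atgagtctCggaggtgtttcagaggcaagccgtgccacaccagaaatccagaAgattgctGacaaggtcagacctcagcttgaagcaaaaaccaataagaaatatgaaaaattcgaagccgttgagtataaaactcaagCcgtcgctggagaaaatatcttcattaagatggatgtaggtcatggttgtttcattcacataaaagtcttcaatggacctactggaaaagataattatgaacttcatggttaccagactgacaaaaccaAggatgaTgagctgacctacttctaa
Stfa2: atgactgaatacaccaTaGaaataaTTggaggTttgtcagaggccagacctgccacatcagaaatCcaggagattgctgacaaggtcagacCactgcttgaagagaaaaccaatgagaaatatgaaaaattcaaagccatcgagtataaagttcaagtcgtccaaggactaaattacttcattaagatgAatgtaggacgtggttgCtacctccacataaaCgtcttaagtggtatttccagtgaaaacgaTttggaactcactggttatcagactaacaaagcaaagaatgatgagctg
Stfa2l1: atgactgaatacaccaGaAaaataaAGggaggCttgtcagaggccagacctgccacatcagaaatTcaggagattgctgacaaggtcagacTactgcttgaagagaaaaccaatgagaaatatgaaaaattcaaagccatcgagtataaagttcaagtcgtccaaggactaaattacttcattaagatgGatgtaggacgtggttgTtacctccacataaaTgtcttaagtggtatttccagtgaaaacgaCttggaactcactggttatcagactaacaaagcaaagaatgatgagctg

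RefSeq (GRCm38.p6) gave the 250 bases before its own transcript start for 7 of the 8 members, with BC100530 under the symbol Cstdc5. RefSeq and GENCODE starts differ, so not every window lay upstream of the GENCODE gene given above. The windows of Wfdc17, BC100530, Stfa1 and Stfa2 lay partly within that gene, and the window of Ifitm6 wholly. A search on both strands for TTGCNNAA, an 8-base form of the C/EBP site, matched Retnlg, BC100530 and Stfa1, where 9.56% of all 32851 such windows held a match. A search for GAGGAA, the core of the PU.1 site, matched Wfdc17, BC100530, Stfa1, Stfa2 and Stfa2l1, where 23.3% of windows did, and the window of Ifitm6 held neither. In no window did matches of the 2 motifs overlap. The windows of Stfa1 (chr16:36276898-36277147, plus strand) and BC100530 (chr16:36367571-36367820, minus strand) were 81.2% identical and are shown, with motif matches in capitals, because the coding sequences of this pair are nearly identical. A match is a description of the letters, not evidence of binding.
Stfa1 upstream: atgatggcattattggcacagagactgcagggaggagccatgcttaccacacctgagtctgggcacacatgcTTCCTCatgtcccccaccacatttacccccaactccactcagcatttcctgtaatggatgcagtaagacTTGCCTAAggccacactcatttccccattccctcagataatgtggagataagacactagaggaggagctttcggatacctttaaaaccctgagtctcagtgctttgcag
BC100530 upstream: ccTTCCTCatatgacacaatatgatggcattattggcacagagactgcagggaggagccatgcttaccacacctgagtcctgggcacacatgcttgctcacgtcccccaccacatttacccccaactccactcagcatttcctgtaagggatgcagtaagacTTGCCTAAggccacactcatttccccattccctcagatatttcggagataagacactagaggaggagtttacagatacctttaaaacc

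The labels granulocytes and neutrophils together held 1377 cells, and since labels came from expression, by matching to reference profiles and clustering, with Camp, Ngp, S100a8 and S100a9 among the study's granulocyte markers, levels between labels are given as descriptions without a test. In joint these labels made up 8.91 ± 5.41% of cells (SD, n = 3, range 3.14 to 13.9%) in healthy and 33.7 ± 19.2% of cells (SD, n = 5, range 15.8 to 54.2%) in CIA mice. Muscle went the other way, with 19.0 ± 8.66% of cells (SD, n = 4, range 7.14 to 28.0%) and 2.15 ± 1.42% of cells (SD, n = 6, range 0.575 to 4.47%). Spleen held 1.29 ± 1.00% of cells (SD, n = 4, range 0 to 2.42%) and 8.23 ± 6.47% of cells (SD, n = 6, range 1.95 to 16.5%), lung held 6 such cells in all, all from CIA mice, and skin held 0. Depth ran from 17748 to 1645734 UMIs per sample. Of the barcodes, 50 occurred in more than 1 library, and 34 of these were shared by muscle and spleen of S8. Marker genes ranked highest under their own label for most labels, but the cells labelled dendritic cells had rank 4 of 13 for dendritic markers and rank 3 for granulocyte markers, and those labelled Myocytes rank 7 for muscle markers, so these names are used only as the label text.

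Among labels, Retnlg, Ifitm6 and Wfdc21 were highest in granulocytes and neutrophils, Wfdc17 in macrophages, and BC100530 in the keratinocytes labelled Basal III cells. Levels are a gene's UMIs per 1000000 UMIs (CPM), and because each molecule is counted once at its 3′ end they do not scale with transcript length. Over samples with at least 10 cells of a label, Retnlg averaged 4855 ± 745 CPM (SD, n = 4) in neutrophils and 3561 ± 2124 CPM (SD, n = 11) in granulocytes, which did not differ beyond their spread, and 686 ± 536 CPM (SD, n = 8) in the next label, dendritic cells. Ifitm6 averaged 1914 ± 1006 CPM (SD, n = 11) in granulocytes and 1259.6 ± 512 CPM (SD, n = 4) in neutrophils. Wfdc21 was the most even of these genes, at 4838 ± 935 CPM (SD, n = 11) in granulocytes, beyond the spread from 1832 ± 1052 CPM (SD, n = 4) in neutrophils.

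**Figure D1:**
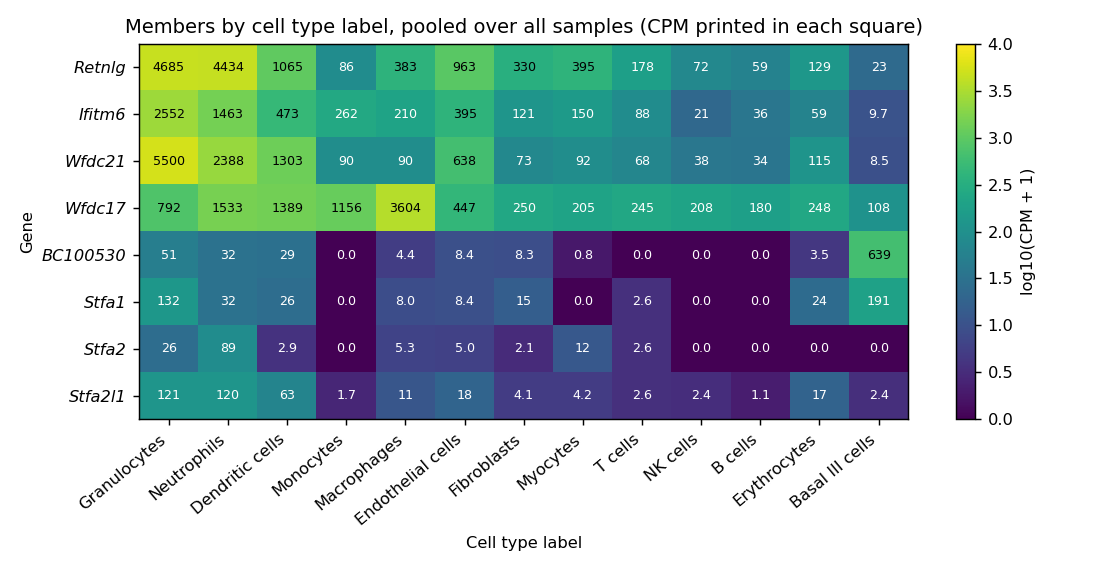
Level of each member by cell type label, in CPM over the pooled cells of all mice and organs, printed in each square and coloured by log10(CPM + 1). Retnlg, Ifitm6 and Wfdc21 are highest in the granulocyte and neutrophil labels, Wfdc17 in macrophages, and BC100530 in Basal III cells. The levels of BC100530 and Stfa1 in Basal III cells both rest largely on the CIA mouse S2.

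Wfdc17 had another order, with 3782 ± 2327 CPM (SD, n = 26) in macrophages, 1041 ± 1035 CPM (SD, n = 11) in monocytes and 892 ± 984 CPM (SD, n = 11) in granulocytes, and neighbours in that order lay within each other's spread. The stefins were sparse. BC100530 had 527 of its 629 UMIs in Basal III cells. It averaged 430 ± 775 CPM (SD, n = 12) there and 41.1 ± 53.8 CPM (SD, n = 11) in granulocytes, the next label, within the spread. Stfa1 was listed at 191 CPM in Basal III cells and 132 CPM in granulocytes. This order of Stfa1 rests on S2, which held 115 of the 156 UMIs of Stfa1 in Basal III cells of skin. S2 also held 355 of the 524 UMIs of BC100530 there. Without that mouse Stfa1 was at 65.8 CPM and BC100530 at 271 CPM there, against 697 CPM for BC100530 with it. Stfa2 had 77 UMIs and Stfa2l1 240 in all annotated cells, with pooled levels of 88.7 and 120.4 CPM in neutrophils. The granulocyte and neutrophil labels held 70.1% of the UMIs of Retnlg, 71.7% of Ifitm6, 83.8% of Wfdc21, 15.1% of Wfdc17, 10.8% of BC100530, 44.2% of Stfa1, 59.7% of Stfa2 and 70.8% of Stfa2l1, beside 77.4% of the UMIs of S100a8 and S100a9. For Retnlg the share was 79.7% in joint, 53.2% in muscle and 48.9% in spleen. Of the 1377 granulocytes and neutrophils, 8 held no UMI of any member, and 59.3% held UMIs of at least 3 members.

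UMIs of neutrophil genes were also found under labels that should lack them. With every cell as deposited, and again after thinning each to 400 UMIs, Retnlg was detected in 66.1% (51.9% after thinning) of granulocytes, 23.1% (10.3% after thinning) of fibroblasts and 3.21% (1.90% after thinning) of B cells, at median depths of 844, 809 and 579 UMIs. S100a8, at 232451 CPM in granulocytes, was detected in 55.2% of B cells before thinning. As a description, the ratio to the UMIs of S100a8 and S100a9 was compared in the 24 samples with at least 1000 such UMIs in granulocytes and neutrophils and 100 in other labels. Per 1000 UMIs of S100a8 and S100a9, the median of Retnlg was 22.1 against 6.50 in granulocytes and neutrophils, higher outside them in 24 of 24 samples. The 2 pooled labels differed from each other in this ratio, so together they do not stand for 1 source. Over all joint cells Retnlg was at 32.9 in neutrophils, 19.0 in granulocytes and 37.1 in fibroblasts. In muscle these values were 25.4, 10.5 and 30.9. Wfdc17, with 50.2% of its UMIs under the macrophage label, was higher outside in 24 of 24 (44.3 against 1.16). Ifitm6 was higher outside in 19 of 24 (7.96 against 5.41). Wfdc21 was higher outside in 0 of 24 (8.92 against 15.7). The labels came from expression, with S100a8 and S100a9 among the study's markers of both, so no test was run, and the part of free RNA, doublets and labelling in these UMIs was not tested.

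**Figure D2:**
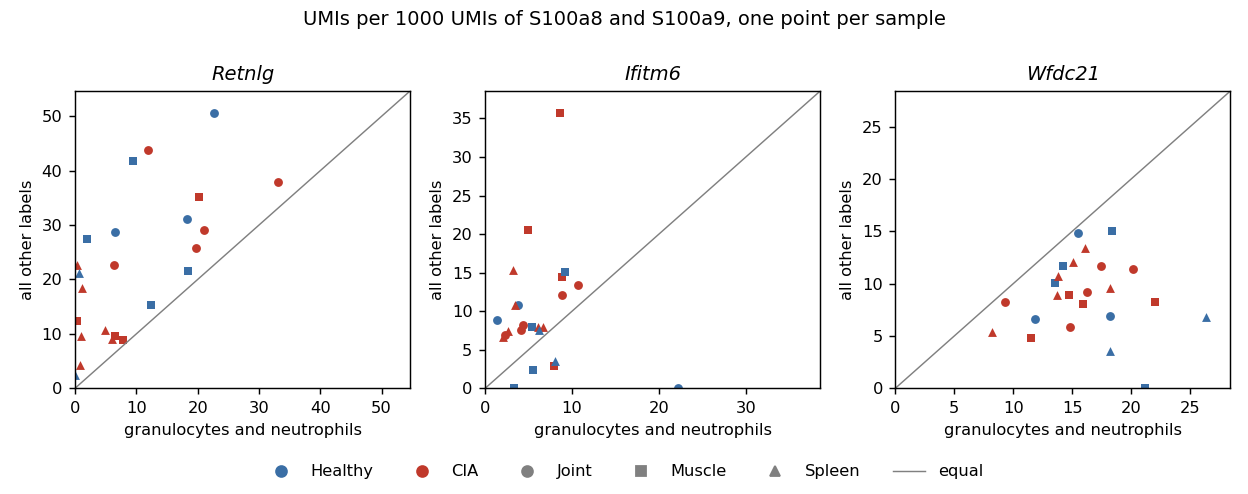
UMIs of Retnlg, Ifitm6 and Wfdc21 per 1000 UMIs of S100a8 and S100a9, in granulocytes and neutrophils (x axis) and in all other labels (y axis) of the same sample, 1 point for each of 24 samples, coloured by group and shaped by organ. Points above the diagonal are higher outside the granulocyte and neutrophil labels, as are all 24 for Retnlg, while all 24 for Wfdc21 lie below it.

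Whether CIA changed these genes was first asked of all annotated cells of an organ, with UMIs summed per mouse, where more granulocytes and more RNA per granulocyte cannot be told apart. In joint, the organ in which the model is scored, Wfdc21 was at 585, 207 and 417 CPM in healthy mice H3, H4 and H7 and at 1519, 704, 2792, 669 and 2720.3 CPM in CIA mice S1, S3, S5, S6 and S8. Every CIA mouse was above every healthy one. The share of all genes whose groups did not overlap is not given, here or below, so a lack of overlap is a description only. The log2 fold change was 2.35 ± 0.64 (SE, edgeR, adjusted p = 0.177). Retnlg was at 1091, 257 and 389 CPM in the healthy mice and 2328, 996, 3412, 1178 and 3124 CPM in the CIA mice, where S3 lay below H3, with a log2 fold change of 2.20 ± 0.62 (SE, edgeR, adjusted p = 0.179). Ifitm6 was at 200.4, 235 and 97.3 and 1154, 461, 1545, 159 and 559.7 CPM, overlapping through S6, with 2.34 ± 0.71 (SE, edgeR, adjusted p = 0.196). Stfa1 had 2 UMIs in healthy joints, both in H3, against 51, 14, 59, 0 and 6 in S1, S3, S5, S6 and S8, and its fitted log2 fold change was 3.85 ± 1.16 (SE, edgeR, adjusted p = 0.196). Wfdc17 overlapped widely (824, 114 and 514 against 1188, 2283, 778, 95.5 and 898 CPM). By edgeR's quasi-likelihood test, 0 of the 5 members that passed the low-count filter were called, where 0.127% of 2364 genes tested were. Of the 5, 4 had an unadjusted p under 0.05. Such counts, here and below, stand without the share of all genes at that unadjusted p. They do not show that the members stood out. DESeq2 called 3 of the 5 as higher in CIA, namely Retnlg, Ifitm6 and Wfdc21, where it called 2.79% of the same genes.

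**Figure D3:**
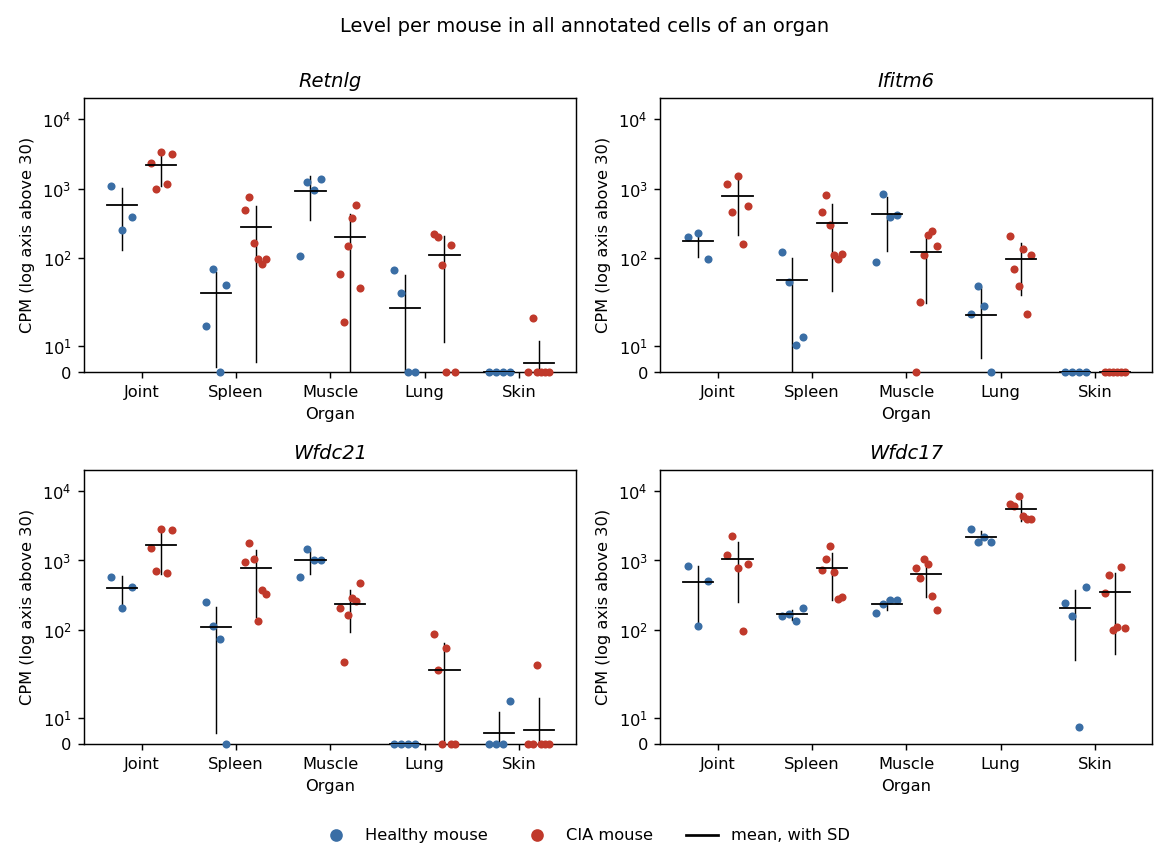
Levels of Retnlg, Ifitm6, Wfdc21 and Wfdc17 in all annotated cells, in CPM (linear below 30, logarithmic above), 1 point per mouse for each organ, healthy beside CIA, with the mean and SD as bars. Wfdc21 does not overlap in joint, where CIA is higher, or in muscle, where CIA is lower. Wfdc17 does not overlap in lung or spleen, nor Retnlg in spleen, with CIA higher in each.

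In spleen, Wfdc17 was at 162, 170.2, 136 and 205 CPM in healthy mice H3, H4, H6 and H7 and at 276 to 1618 CPM with a median of 707 in the 6 CIA mice, with no overlap and a log2 fold change of 2.27 ± 0.51 (SE, edgeR, adjusted p = 0.109). Retnlg was at 18.0, 70.5, 0 and 41.1 CPM in healthy mice and 82.2 to 755 CPM with a median of 133 in CIA mice, also with no overlap, with 3.01 ± 0.88 (SE, edgeR, adjusted p = 0.26). Wfdc21 was at 251, 114, 73.4 and 0 CPM against 135 to 1798 CPM with a median of 669, overlapping through S5, with 2.95 ± 0.91 (SE, edgeR, adjusted p = 0.326). Ifitm6 was at 126, 46.2, 10.5 and 13.7 CPM against 97.1 to 822 CPM with a median of 210.5, overlapping as well, with 2.88 ± 0.85 (SE, edgeR, adjusted p = 0.26). By edgeR, 0 of the 4 members tested were called (background 0.137% of 2927 genes), and DESeq2 called 2, Ifitm6 and Wfdc17 (1.67% of the same genes). In the edgeR fit 4 of 4 had an unadjusted p under 0.05, a threshold at which the share of all genes is not given. Without S8 edgeR called Wfdc17 (adjusted p = 0.0338). In the spleen cells outside the granulocyte and neutrophil labels the log2 fold changes were 2.18 ± 0.49 (SE, edgeR, adjusted p = 0.0913) for Wfdc17, 2.30 ± 0.72 (SE, edgeR, adjusted p = 0.39) for Retnlg, 3.94 ± 1.04 (SE, edgeR, adjusted p = 0.212) for Wfdc21 and 2.97 ± 0.70 (SE, edgeR, adjusted p = 0.106) for Ifitm6. There edgeR called 0 of 4 (0.103% of 2904 genes), again with 4 of 4 at an unadjusted p under 0.05, and DESeq2 called all 4 (1.41% of the same genes). Neutrophil transcripts had positive values in these cells too, with 2.44 ± 0.79 (SE, edgeR, adjusted p = 0.472) for S100a8, 2.46 ± 0.79 (SE, edgeR, adjusted p = 0.468) for S100a9, 2.78 ± 1.01 (SE, edgeR, adjusted p = 0.643) for Ngp and 1.92 ± 0.78 (SE, edgeR, adjusted p = 0.765) for Camp, and their part in the result was not tested. Of the UMIs outside those labels in CIA spleens, the label dendritic cells held 378 of 539 for Wfdc21 and 301 of 451 for Retnlg. For Ifitm6 it held 134 of 352 and for Wfdc17 439 of 1375. That label had 342 cells in CIA and 29 in healthy spleens, with S100a8 and S100a9 together at 116469 and 91327 CPM. Its part in the result was not tested either.

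Muscle had the opposite direction for Retnlg, Ifitm6 and Wfdc21. Wfdc21 was at 572, 1480.5, 1007 and 1003 CPM in healthy mice H3, H4, H6 and H7 and 35.0 to 470.5 CPM with a median of 233 in CIA mice, all 6 below all 4, with a log2 fold change of -2.31 ± 0.57 (SE, edgeR, adjusted p = 0.366). Retnlg was at 107, 1260.0, 969 and 1379.7 CPM and 19.5 to 578 CPM with a median of 105, overlapping through H3, with -2.36 ± 0.83 (SE, edgeR, adjusted p = 0.778). Wfdc17 had a positive log2 fold change of 1.21. By edgeR, 0 of 4 members tested were called (background 0.055% of 3634 genes), and DESeq2 called 1 as lower, Wfdc21 (0.633% of the same genes). In the edgeR fit 4 of 4 had an unadjusted p under 0.05, and the share of all genes at that threshold is not given, here or for joint against muscle. Red cell lysis buffer was used on muscle of H6, H7, S2, S3, S6 and S8 and not of H3, H4, S1 and S5, and with lysis as a term the log2 fold change was -2.24 ± 0.53 (SE, edgeR, adjusted p = 0.173) for Wfdc21 and -2.32 ± 0.77 (SE, edgeR, adjusted p = 0.44) for Retnlg. The CIA effect in joint minus that in muscle was tested directly and came to 4.61 ± 0.95 (SE, edgeR, adjusted p = 0.0673) for Wfdc21, 4.29 ± 1.16 (SE, edgeR, adjusted p = 0.17) for Ifitm6 and 4.50 ± 1.26 (SE, edgeR, adjusted p = 0.175) for Retnlg on the log2 scale. Here edgeR called 0 of 5 members (background 0.0707% of 4241 genes, 4 of 5 at an unadjusted p under 0.05), and DESeq2 called those 3 (1.46% of the same genes). Without S2 or without S6 edgeR called Wfdc21 (adjusted p = 0.0367 and 0.0383). The share of cells labelled granulocytes or neutrophils, given above, was on average higher with CIA in joint and spleen and lower in muscle.

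Among granulocytes and neutrophils alone, taken as 1 sum per mouse with at least 5 such cells, Retnlg, Ifitm6 and Wfdc21 had, in joint, log2 fold changes of 0.38 ± 0.43 (SE, edgeR, adjusted p = 0.925), -0.25 ± 0.71 (SE, edgeR, adjusted p = 0.965) and 0.25 ± 0.36 (SE, edgeR, adjusted p = 0.925). The value of Ifitm6 turned on H4, whose sum held 5 cells, and was 1.74 without it (edgeR, adjusted p = 0.222), with pooled levels over all mice of 1563 CPM in healthy and 2843 CPM in CIA mice. A p that misses the threshold does not show that the groups were equal. Wfdc17 was at 125, 0 and 0 CPM in H3, H4 and H7 and 2102, 3199, 618, 448 and 638 CPM in S1, S3, S5, S6 and S8, without overlap. Its log2 fold change was 4.23 ± 1.05 (SE, edgeR, adjusted p = 0.161), and the healthy value rested on 3 UMIs in 36 cells. By edgeR 0 of 4 members were called (background 0% of 174 genes, 1 of 4 at an unadjusted p under 0.05), and DESeq2 called 1, Wfdc17 (0.575% of the same genes). Without S6 edgeR called it too (adjusted p = 0.0489). In muscle the mix of the 2 labels differed between the groups, with 184 granulocytes and 35 neutrophils in healthy and 16 and 92 in CIA mice, 86 of those neutrophils from S6, and its part in the values was not tested. There Retnlg, Ifitm6 and Wfdc21 had -0.53 ± 0.57 (SE, edgeR, adjusted p = 0.972), 0.25 ± 0.43 (SE, edgeR, adjusted p = 0.999) and 0.06 ± 0.47 (SE, edgeR, adjusted p = 0.999), 0 of 3 were called (background 1.27% of 237 genes, 0 at an unadjusted p under 0.05), and DESeq2 called 0. Wfdc17 was below the filter there, at 0, 50.3, 105 and 162 CPM in H3, H4, H6 and H7 and 16415, 2732, 463 and 299.9 CPM in S2, S3, S6 and S8. The value of S2 came from 6 cells. Wfdc17 passed the filter and was called by edgeR without H3, S3 or S8 (adjusted p = 0.00888, 0.00602 and 0.00102), mice with 5 such cells each. Its higher values were all in CIA mice, so passing the filter is not independent of the difference. The share of all genes called in these fits is not given. These calls are therefore a description only. Over all 8 fits that each left out 1 mouse, passing the filter or not, the log2 fold change ran from 2.74 to 5.53. The adjusted p ran from 0.00102 to 0.536 (edgeR), with 4 of the 8 past the threshold. In spleen only 1 healthy mouse reached 5 such cells and no fit was made. Healthy spleen granulocytes and neutrophils, 12 cells in all, held 0 UMIs of Wfdc17. The 240 such cells of CIA mice held 271 UMIs, and 150 of these cells came from S2. With 3 UMIs taken as the limit over the healthy group, the pooled CIA level was at least 3.06-fold higher. This limit covers counting error in the pooled cells only, not the spread over mice, and is a description.

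**Figure D4:**
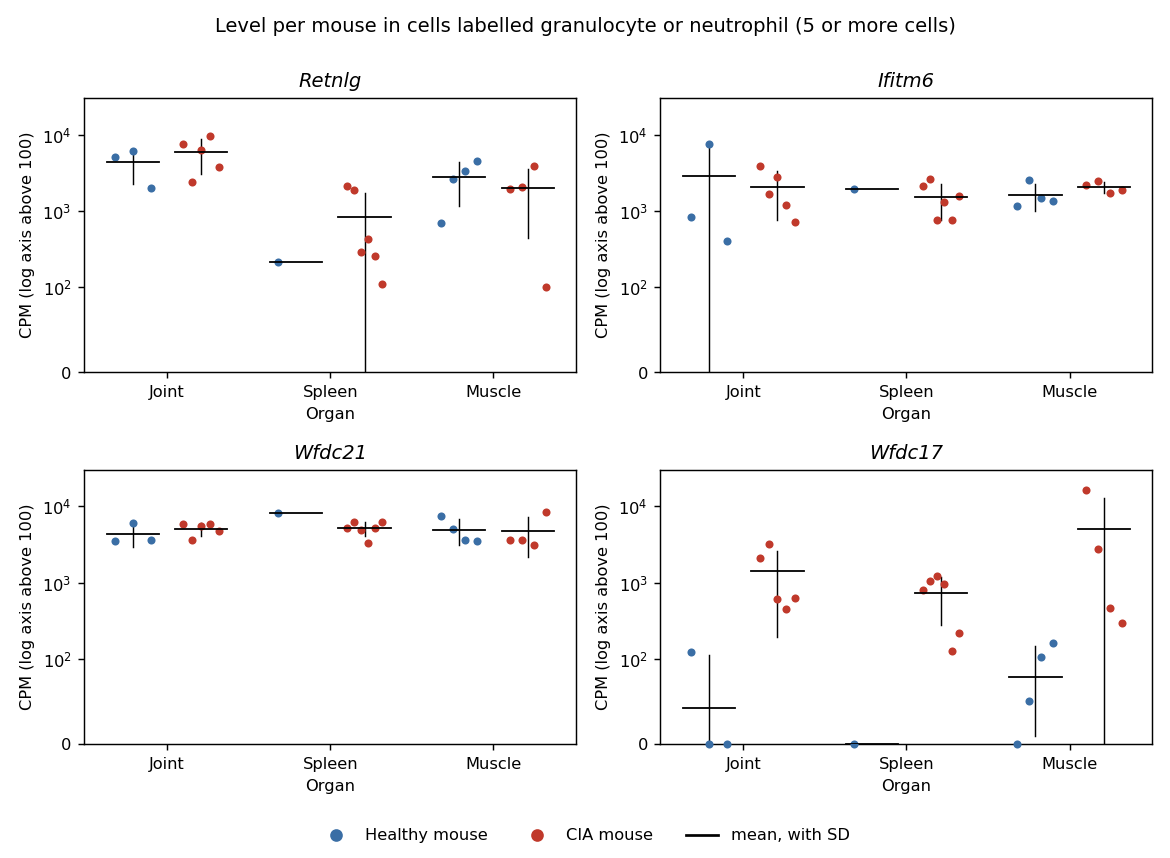
Levels of Retnlg, Ifitm6, Wfdc21 and Wfdc17 within the granulocyte and neutrophil labels, in CPM (linear below 100, logarithmic above), 1 point per mouse with at least 5 such cells, by organ and group, with the mean and SD as bars. Wfdc17 of healthy joints lies below all 5 CIA joints, and Retnlg is higher in CIA joint than in CIA spleen.

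Retnlg differed between granulocytes of different organs of the CIA mice. It was at 7583, 2431, 6211, 9559 and 3736 CPM in joint of S1, S3, S5, S6 and S8 and at 2094, 1876, 289, 432, 254 and 111 CPM in spleen of S1, S2, S3, S5, S6 and S8. The groups did not overlap. The test of this difference was added after values were seen, so its p is not that of a planned test. With the mouse as a block, which leaves out S2 for want of a joint sample, Retnlg was higher in joint by 3.27 ± 0.53 (SE, edgeR, adjusted p = 0.00905) on the log2 scale, the only 1 of 4 members called, where 12.2% of 98 genes tested were. Wfdc21, Ifitm6 and Wfdc17 had -0.13 ± 0.24 (SE, edgeR, adjusted p = 0.75), 0.39 ± 0.39 (SE, edgeR, adjusted p = 0.564) and 0.81 ± 0.46 (SE, edgeR, adjusted p = 0.299). In the same fit S100a8 had -0.26 ± 0.21 (SE, edgeR, adjusted p = 0.455) and Camp -0.58 ± 0.28 (SE, edgeR, adjusted p = 0.21). The call was lost without S8, whose spleen sum held 7 cells (adjusted p = 0.0517, edgeR). The spleen sums of S5 and S6 held 7 and 5 cells, and the joint sum of S6, with the highest level, held 9. Joint samples were digested with enzymes while spleen samples were strained and treated with red cell lysis buffer, so tissue and preparation cannot be told apart.

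Outside the granulocyte and neutrophil labels, single labels gave a few calls. In joint fibroblasts Retnlg was at 111, 46.4 and 129 CPM in healthy mice H3, H4 and H7 and 517, 772 and 674 CPM in CIA mice S1, S3 and S5, the mice with at least 10 such cells. It rose by 2.69 ± 0.44 (SE, edgeR, adjusted p = 0.0315) on the log2 scale, 1 of 3 members tested (background 1.38% of 1014 genes), and DESeq2 called 2 of 3 (7.79% of the same genes). Ifitm6 had 3.50 ± 0.74 (SE, edgeR, adjusted p = 0.0559) and Wfdc17 2.91 ± 1.09 (SE, edgeR, adjusted p = 0.233). Wfdc21 was below the filter, with 3 UMIs in healthy and 81 in CIA joint fibroblasts. Over the 6 fits that each left out 1 mouse its log2 fold change ran from 2.92 to 7.48. Its adjusted p ran from 0.00571 to 0.139 (edgeR), with 4 of the 6 past the threshold. S100a8 and S100a9, transcripts of neutrophils, had 2.50 ± 0.60 (SE, edgeR, adjusted p = 0.098) and 2.30 ± 0.62 (SE, edgeR, adjusted p = 0.121) in the same cells, and their part in the result was not tested. The call for Retnlg was lost without any 1 of the 3 healthy mice, with edgeR log2 fold changes of 2.87 (adjusted p = 0.104) without H3, 2.49 (adjusted p = 0.0842) without H4 and 2.88 (adjusted p = 0.0979) without H7, and with mice of at least 5 cells (edgeR, adjusted p = 0.118). In joint macrophages edgeR called 0 of 2 members, Retnlg and Wfdc17 (background 9.89% of 273 genes, 0 at an unadjusted p under 0.05), as did DESeq2. In muscle macrophages, muscle T cells and spleen B cells edgeR called 0 of 3, 0 of 3 and 0 of 1 members tested, with 0, 0 and 1 at an unadjusted p under 0.05, where 0.183%, 0.102% and 0% of genes were called, and DESeq2 called 0 in each. Over all joint cells outside the granulocyte and neutrophil labels edgeR called 0 of 4 (background 0.211%, 3 at an unadjusted p under 0.05) and DESeq2 0, and Retnlg had 2.02 ± 0.75 (SE, edgeR, adjusted p = 0.448). Over the same cells of muscle edgeR called 0 of 4 (background 0%, 0 at an unadjusted p under 0.05) and DESeq2 0.

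Wfdc17 rose with CIA in lung, in lung macrophages and in spleen monocytes. In all annotated lung cells it was at 2859, 1821, 2194 and 1869.5 CPM in healthy mice H3, H4, H6 and H7 and 3888 to 8516 CPM with a median of 5204 in CIA mice, all 6 above all 4. It rose by 1.24 ± 0.24 (SE, edgeR, adjusted p = 0.00376) on the log2 scale and was the only member that passed the filter, where 5.1% of 686 genes were called. The lung macrophages held most of it, at 3498, 2089, 2477 and 1987 CPM in the healthy mice and 3931 to 10675 CPM with a median of 5977 in CIA mice, and it rose there by 1.20 ± 0.28 (SE, edgeR, adjusted p = 0.0127) (background 6.51% of 538 genes). In all lung cells outside the granulocyte and neutrophil labels it rose by 1.25 ± 0.25 (SE, edgeR, adjusted p = 0.00414) (background 5.55%). In spleen monocytes Wfdc17 was at 103, 223, 155 and 408 CPM in healthy and 786 to 3659 CPM with a median of 1506 in CIA mice and rose by 2.54 ± 0.51 (SE, edgeR, adjusted p = 0.0171), the only 1 of the members that passed the filter (background 6.8% of 456 genes, 9.87% by DESeq2). Of the members below it, a fit of every gene gave Ifitm6 2.53 ± 0.65 (SE, edgeR, adjusted p = 0.0247), past the threshold in 5 of the 10 fits that each left out 1 mouse. Wfdc21 had 0 UMIs in healthy and 51 in CIA spleen monocytes (edgeR, adjusted p = 0.00817), past the threshold in 8 of the 10. S100a8 rose in the same cells, by 4.15 ± 0.62 (SE, edgeR, adjusted p = 0.00041) in lung macrophages and 3.59 ± 0.76 (SE, edgeR, adjusted p = 0.021) in spleen monocytes, and its part in these results was not tested. With experiment as a term, Wfdc17 in lung had a log2 fold change of 1.06 (edgeR, adjusted p = 0.00209), and in the mice of the experiment CIA alone 1.07 (edgeR, adjusted p = 0.027). With no low-count filter the call in all lung cells was lost (edgeR, adjusted p = 0.0541). In the mice of the experiment CIA alone the adjusted p for Wfdc17 was 0.0579 in lung macrophages and 0.0943 in spleen monocytes (edgeR). The call was also lost without H4 in lung macrophages (edgeR, adjusted p = 0.0821) and without H4 or H6 in spleen monocytes (edgeR, adjusted p = 0.0545 and 0.0649).

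Skin gave the stefins another setting, since it held no cell labelled granulocyte or neutrophil but most UMIs of BC100530. In the Basal III cells BC100530 was at 218, 0, 223 and 163 CPM in healthy mice H3, H4, H6 and H7 and 913, 2760.3, 439, 16.4, 162 and 138 CPM in CIA mice S1, S2, S3, S5, S6 and S8. The 3 severe mice were above every healthy mouse, and the 3 milder ones were not. The log2 fold change was 2.18 ± 0.91 (SE, edgeR, adjusted p = 0.83), and with the mice of the experiment CIA alone it was -1.10. BC100530 is also among the study's markers of this label. S100a8, which keratinocytes can also make, was at 0, 0, 10.1 and 0 CPM in the healthy and 55.3, 279.9, 58.5, 32.8, 0 and 61.5 CPM in the CIA mice in these cells, and its part in the result was not tested. Stfa1 was at 21.8, 0, 60.8 and 95.2 and 166, 894, 78.0, 0, 0 and 108 CPM and was below the filter. In a fit of every gene it had 2.24 ± 0.48 (SE, edgeR, adjusted p = 0.0042), but S2 held 123 of its 164 skin UMIs, and in all annotated skin cells without S2 the value was 0.66 (edgeR, adjusted p = 0.647) and with DESeq2 the adjusted p was 0.998. In all annotated skin cells edgeR called 0 of 2 members (background 0% of 2180 genes, 1 at an unadjusted p under 0.05), in Basal III cells 0 of 1 (background 0% of 1280 genes, 1 at an unadjusted p under 0.05), and DESeq2 called 0 in both.

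**Figure D5:**
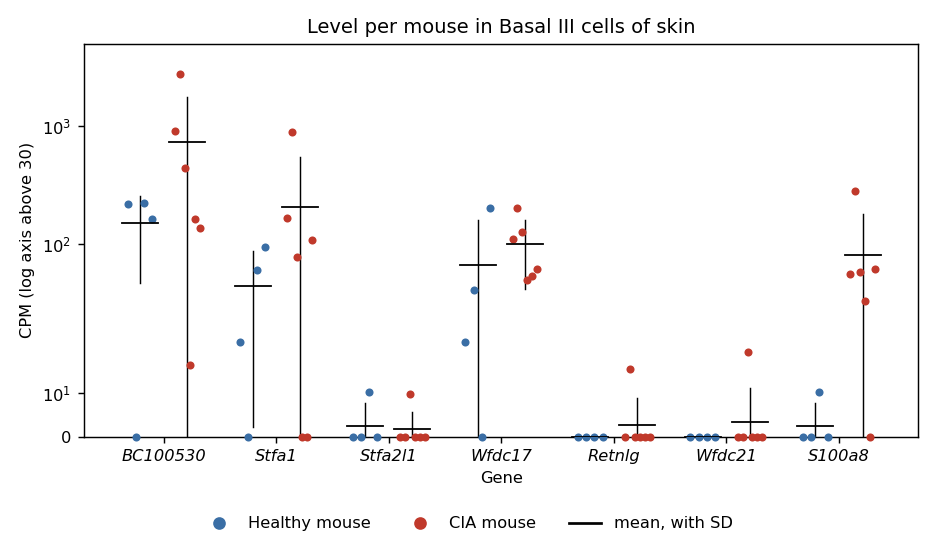
Levels of 6 members and of S100a8 in Basal III cells of skin, in CPM (linear below 30, logarithmic above), 1 point per mouse, with the mean and SD as bars. S1, S2 and S3, the severe CIA mice, lie above the healthy mice for BC100530, with S2 highest, and the milder CIA mice S5, S6 and S8 do not.

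Other genes of the same programmes are set beside the members as a description. Their lists, like the members, were chosen with earlier results of these data known, so they are no independent background. In joint, the mature neutrophil list of 15 genes had 10 tested, 0 called and a median log2 fold change of 2.19, where the median of all genes was 0.03 and that of the 5 members 2.34. In muscle 9 were tested with a median of -1.76, and 1 fell, the neutrophil collagenase gene Mmp8 by 3.54 on the log2 scale (edgeR, adjusted p = 0.0366). Mmp8 also differed in its CIA effect between joint and muscle, by 5.51 ± 0.77 (SE, edgeR, adjusted p = 0.00225), as did the primary granule protease gene Prtn3, by 5.99 ± 1.02 (SE, edgeR, adjusted p = 0.0168). In spleen the median of the 3 tested was 1.66 with 0 called. Of the members' own families, Slpi, a WAP-domain protease inhibitor, rose in joint fibroblasts (edgeR, adjusted p = 0.0449). Ifitm3 and Ifitm2, antiviral genes of the Ifitm family, rose in all annotated lung cells by 2.22 ± 0.41 (SE, edgeR, adjusted p = 0.00241) and 1.82 ± 0.46 (SE, edgeR, adjusted p = 0.0279), and both also rose in joint macrophages, lung macrophages and spleen monocytes. Cst3, the secreted cathepsin inhibitor cystatin C, fell in joint macrophages by 1.72 on the log2 scale (edgeR, adjusted p = 0.0219). No other gene of the resistin family (Retn, Retnla, Retnlb) was called in these fits.

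The genes most like a member were taken by Pearson's r of log2(CPM + 10) over 160 sums per mouse, organ and label, which share libraries and mice, among 9862 genes. They were Ngp (0.87), Camp (0.84) and S100a9 (0.84) for Retnlg, Ngp (0.81), Trem1 (0.80) and S100a9 (0.79) for Ifitm6 and Ltf (0.87), Ngp (0.87) and Camp (0.87) for Wfdc21, mostly genes of neutrophil granules. Wfdc17 was closest to Ccl6 (0.71), Fcer1g (0.67) and Lyz2 (0.65), genes of myeloid cells. Stfa1 was closest to BC100530 (0.65), Mapk13 (0.51) and 6430548M08Rik (0.50). Stfa2l1 was closest to Cxcr2 (0.79), Gm5483 (0.70) and Il1f9 (0.68), of which Cxcr2 is the chemokine receptor of mature neutrophils and Gm5483 another stefin. Stfa2 had too few UMIs for this measure.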

How the data were processed

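The authors demultiplexed the Seq-Well reads with bcl2fastq, processed them with Picard and aligned them with STAR, per the labels and the study's methods. The methods name GRCm38 as the reference, whereas the submitters' processing notes list GRCh38 and mm9, so the coordinates here are those of the GRCm38 annotation and not of the table. The deposited values are UMI counts per gene and cell, as filtered by the authors, and a second deposited table gives each cell's label. Doublets were not called here, since cell filtering was done before deposit, and 16 cells held over 6000 UMIs.

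UMI counts were summed per mouse, organ and cell set, with labels at their face value. Healthy and CIA sums were compared with edgeR's quasi-likelihood test (TMM factors, the default low-count filter, Benjamini-Hochberg adjustment over all genes tested, threshold 0.05), taking mice with at least 10 cells of a label, or 5 granulocytes and neutrophils. Members removed by the filter were read from a fit of every gene and were not counted as called. Replicates are separate mice, and no 2 of 97 replicate pairs agreed within sampling noise. The joint and muscle comparison used all mice without a block. Joint and muscle samples of a mouse come from the same animal, with correlations of their deviations of -0.188 to 0.354 over 8 mice. Alternatives were DESeq2, RLE factors, plain library size, no filter, experiment as a term or a single experiment, cells without a label, cells of shared barcodes removed, other cell minimums, a block, and leaving out each mouse. Intervals and limits cover counting error only, and 3 UMIs were taken as the limit of a count of 0. The scripts were tested on simulated data. Thinning drew 400 UMIs per cell. The named genes were all 8 members, for each member its 3 most alike genes among those with at least 100 UMIs, and genes of the fixed lists past the threshold. The genes most like BC100530 are not reported here. The members and lists were chosen with earlier results of these data known, and the comparison of joint with spleen granulocytes, the removal of shared barcodes and the Basal III levels without S2 were added after values were seen. Sequences came from the GRCm38 annotation and RefSeq. R 4.3.3, edgeR 4.0.16 and DESeq2 1.42.0 were used, with numpy 2.4.6, pandas 2.3.3, scipy 1.17.1 and matplotlib 3.10.9 in Python 3.11.15.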

Additional observations from a re-analysis of the deposited data

Results flagged for a closer look

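Within groups of 4 to 10 mice, a mouse was looked at again when its gap to the nearest other took up more of the group's range than Dixon's critical value allows. Chance gives this in about 1 in 20 groups of normally distributed values, a rate that need not hold for sparse counts. Of 45 groups with at least 10 UMIs, 8 had such a mouse, all for stefins and all in the CIA group. Healthy joints, with 3 mice, could not be looked at, and most healthy stefin groups held fewer than 10 UMIs. The limits thus left mainly CIA groups for the stefins. In skin, S2 had BC100530 at 1516 CPM from 361 UMIs (median of the other CIA mice 111 CPM) and Stfa1 at 516 CPM from 123 UMIs (median of the other CIA mice 62.6 CPM). The same mouse stood out in muscle, with Stfa1 at 44.8 CPM from 23 UMIs (median of the other CIA mice 2.45 CPM) and BC100530 at 21.4 CPM from 11 UMIs (median of the other CIA mice 0 CPM). S1 stood out in joint, with BC100530 at 45.4 CPM from 29 UMIs (median of the other CIA mice 4.05 CPM) and Stfa2 at 32.9 CPM from 21 UMIs (median of the other CIA mice 0 CPM), and in lung, with Stfa1 at 98.3 CPM from 10 UMIs (median of the other CIA mice 0 CPM). In muscle, S6 had Stfa2 at 23.7 CPM from 39 UMIs (median of the other CIA mice 0 CPM). The counts are small outside skin, and Stfa1 and BC100530 are near-identical in sequence, so that their values are not independent of each other.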

How the results depend on the processing

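The number of members called depended most on the tool and the low-count filter. With DESeq2 the count was 3 in all annotated cells of joint, 1 in muscle and 2 in spleen, 4 in spleen outside the granulocyte and neutrophil labels, 2 in joint fibroblasts, 1 in joint granulocytes and 3 for joint against muscle. With no filter it was 3 in all cells of joint, 2 in muscle, 2 in skin and 4 in spleen, 0 in lung, and outside the granulocyte and neutrophil labels 1 in joint, 0 in lung, 2 in skin and 4 in spleen. With no filter it was also 4 in joint fibroblasts, 0 in lung macrophages, 2 in Basal III cells, 3 in spleen monocytes and 3 for joint against muscle. The share of all genes called with no filter was 0.274%, 0.25%, 0.152% and 0.747% in all cells of joint, muscle, skin and spleen, 0.295%, 0.152% and 0.629% outside those labels in joint, skin and spleen, and 0.52% in joint fibroblasts, 0.0818% in Basal III cells, 0.485% in spleen monocytes and 0.302% for joint against muscle. With experiment as a term the count was 1 in joint granulocytes. With the mice of the experiment CIA alone it was 0 in lung macrophages and 0 in spleen monocytes, and with at least 5 cells per mouse 0 in joint fibroblasts. Over all genes in all annotated cells, edgeR called 3 in joint, 2 in muscle, 4 in spleen and 35 in lung, and DESeq2 66, 23, 49 and 44. For joint against muscle these counts were 3 and 62, and for joint fibroblasts 14 and 79. Mice of the healthy and CIA groups that share a number are different animals, so a block on that number pairs nothing by design. With this replicate block the count was 0 in all lung cells, 0 in lung cells outside the granulocyte and neutrophil labels, 0 in lung macrophages and 3 in spleen cells outside those labels. The share of all genes called with this block, or with experiment as a term, is not given. Counts under these settings do not show that the members stood out. With the animal as a replicate block, joint against muscle stayed at 0, and joint against spleen granulocytes at 1 with no replicate block. Leaving out single mice moved the count between 0 and 1 in all spleen cells, joint fibroblasts, lung macrophages, spleen monocytes, joint granulocytes, muscle granulocytes, joint against muscle and joint against spleen granulocytes. Signs turned for members that were not called. In muscle outside the granulocyte and neutrophil labels the block gave Retnlg 0.85, Ifitm6 2.51 and Wfdc21 0.041 on the log2 scale, and leaving out mice gave Ifitm6 -1.30 to 0.43. With the experiment CIA alone, skin gave BC100530 -0.84 and Stfa1 -0.59, and Basal III cells gave BC100530 -1.10 and Stfa1 -0.78. In muscle macrophages Ifitm6 was 0.20 with experiment as a term or alone and -1.09 to 0.26 without single mice, and in muscle T cells Ifitm6 was 0.22 with the term and Wfdc17 -0.087 to 2.04 without single mice. In joint granulocytes Ifitm6 was 0.93 with no filter and -0.66 to 1.74 without single mice. In muscle granulocytes Retnlg was 0.61 with the block, Ifitm6 -0.49 with no filter and -0.087 with the experiment CIA alone, and Wfdc21 -0.017 with plain library size, -0.64 with no filter, -0.52 with the block and -0.68 to 0.38 without single mice. For joint against muscle Wfdc17 was -0.26 with plain library size and -0.41 to 0.90 without single mice, and for joint against spleen granulocytes Wfdc21 was 0.024 with plain library size and 0.72 with no filter. The causes were not tested. Precision was limited by depth for the stefins, of which Stfa2 had 77 UMIs, and by the 36 granulocytes of healthy joints and 12 of healthy spleens, where differences of the low-count members were not detectable.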
